A study of Homo sapiens with 10 samples.

Results

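The genes described here are the vascular endothelial growth factor (VEGF) ligands VEGFA, VEGFB, VEGFC, VEGFD and PGF, the receptor tyrosine kinases FLT1, KDR and FLT4, and the neuropilin coreceptors NRP1 and NRP2. They were chosen by name from the family and found in the count table through their Ensembl identifiers in GENCODE 44, which gave 10 of the 60448 genes of the table. RNA-seq was performed on confluent cultures of the endothelial lines EA.hy926 and HMEC-1 without treatment, 5 biological replicates of each. EA.hy926 is an immortal hybrid made by fusing a human umbilical vein endothelial cell with A549, a lung carcinoma line. HMEC-1 comes from dermal microvascular endothelium and was immortalized with the SV40 large T antigen. EA.hy926 was kept in Advanced DMEM with 5% fetal bovine serum, and HMEC-1 in MCDB 131 with 10% serum, hydrocortisone at 1 µg/mL and epidermal growth factor at 10 ng/mL, while both media held 10 mM glutamine. Each line comes from 1 source and has its own medium, so line and medium cannot be told apart in any difference given below. Total counts of the EA.hy926 libraries were 34846046 to 39899324, and those of HMEC-1 were 33391640 to 43877224. The endothelial markers PECAM1 and CDH5 were present in all libraries, with PECAM1 at 1633 ± 158 CPM (counts scaled to a common library size with TMM factors; mean ± SD, n = 5) in EA.hy926 but 254 ± 7.16 CPM in HMEC-1, and CDH5 at 1268 ± 63.1 and 441 ± 5.39 CPM.

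VEGF ligands are secreted dimers that bring together pairs of receptors on endothelial cells. VEGFA binds FLT1 (VEGFR1) and KDR (VEGFR2), and KDR carries most of its signal for endothelial growth, migration and permeability. FLT1 binds VEGFA tightly but signals weakly, so it is often described as a decoy, and it is the receptor of VEGFB and PGF. FLT4 (VEGFR3) is the receptor of VEGFC and VEGFD and is best known from lymphatic endothelium. NRP1 and NRP2 have no kinase domain of their own and present VEGF and class 3 semaphorins to their partner receptors.

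Sequences upstream of a RefSeq start site of FLT1, KDR, NRP2 and PGF are given below, because transcripts of FLT1, NRP2 and PGF were higher in EA.hy926 while those of KDR did not pass the test. PGF has a pair of RefSeq starts in the table used, and the window of 1 of them is shown. Each window is the 250 bases before the start, from RefSeq on GRCh38.p14, written 5′ to 3′ along the strand of the gene. Capitals mark GGAA or, on the other strand, TTCC, the core of the motif bound by ETS factors, which are transcription factors active in endothelium.
FLT1, chr13:28495129-28495378, minus strand: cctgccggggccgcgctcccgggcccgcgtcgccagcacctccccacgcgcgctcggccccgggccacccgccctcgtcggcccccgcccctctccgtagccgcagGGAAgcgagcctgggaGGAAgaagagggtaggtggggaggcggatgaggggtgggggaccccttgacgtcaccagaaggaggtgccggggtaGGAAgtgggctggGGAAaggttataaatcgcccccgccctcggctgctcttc
KDR, chr4:55125596-55125845, minus strand: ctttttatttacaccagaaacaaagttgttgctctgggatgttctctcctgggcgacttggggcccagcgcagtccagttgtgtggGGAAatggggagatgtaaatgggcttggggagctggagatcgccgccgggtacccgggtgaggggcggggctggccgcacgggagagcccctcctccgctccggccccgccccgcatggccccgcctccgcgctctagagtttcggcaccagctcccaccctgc
NRP2, chr2:205682251-205682500, plus strand: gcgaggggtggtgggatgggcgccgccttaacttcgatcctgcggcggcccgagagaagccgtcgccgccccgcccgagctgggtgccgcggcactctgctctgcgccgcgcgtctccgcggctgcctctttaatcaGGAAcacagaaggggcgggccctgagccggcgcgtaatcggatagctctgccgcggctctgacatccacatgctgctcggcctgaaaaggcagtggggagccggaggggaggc
PGF, chr14:74955598-74955847, minus strand: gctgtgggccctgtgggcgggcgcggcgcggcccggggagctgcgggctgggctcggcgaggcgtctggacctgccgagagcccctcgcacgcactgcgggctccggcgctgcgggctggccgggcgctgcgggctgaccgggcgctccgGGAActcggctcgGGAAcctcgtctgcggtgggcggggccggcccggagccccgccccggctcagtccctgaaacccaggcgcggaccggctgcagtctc

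The FLT1 window held 4 ETS cores, that of PGF 2, and those of KDR and NRP2 1 each. The other PGF window, chr14:74955765-74956014, held 3 ETS cores and 2 GC boxes. Over the 35116 RefSeq windows of this length, 92.7% held at least 1 such core, the median was 3, and 34.3% held 4 or more. The GC box GGGCGG, searched on both strands, was found 3 times in the printed windows of FLT1, NRP2 and PGF and 2 times in that of KDR, and 42.6% of all windows held it. The hypoxia response core ACGTG was in none of the 8 windows of FLT1, KDR, NRP2, PGF, VEGFB, VEGFC and VEGFD, and 18.5% of all windows held it. Windows of VEGFA, NRP1 and FLT4 were not analysed here. GATA was found in the windows of NRP2 and VEGFD, against 45.6% of all windows. These matches describe the letters of the windows and were not tested for binding.

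Of the 10 genes, 9 passed the filter on low counts, and VEGFD did not. A gene is called here when the adjusted p of edgeR's quasi-likelihood test is under 0.05 and the absolute log2 fold change (log2FC, positive where EA.hy926 is higher) is over 1. FLT1, NRP1, NRP2 and PGF were called higher and FLT4 lower in EA.hy926, which makes 5 of 9, while 35.5% of the 16310 genes tested were called, 19.1% higher and 16.4% lower. FLT4 passed the filter through HMEC-1 alone. At an adjusted p under 0.05 whatever the size, 6 of the genes were higher, 1 was lower and KDR and VEGFB did not pass, beside 85.8% of all genes passing, 42.6% higher and 43.3% lower. The CPM of the lines did not overlap for 6 of 9 genes, and for 77.4% of all genes tested. The median log2FC was 0.60 over the 9 genes and -0.010 over all genes tested. In bulk RNA, fewer expressing cells and less RNA per cell cannot be told apart.

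**Figure D1:**
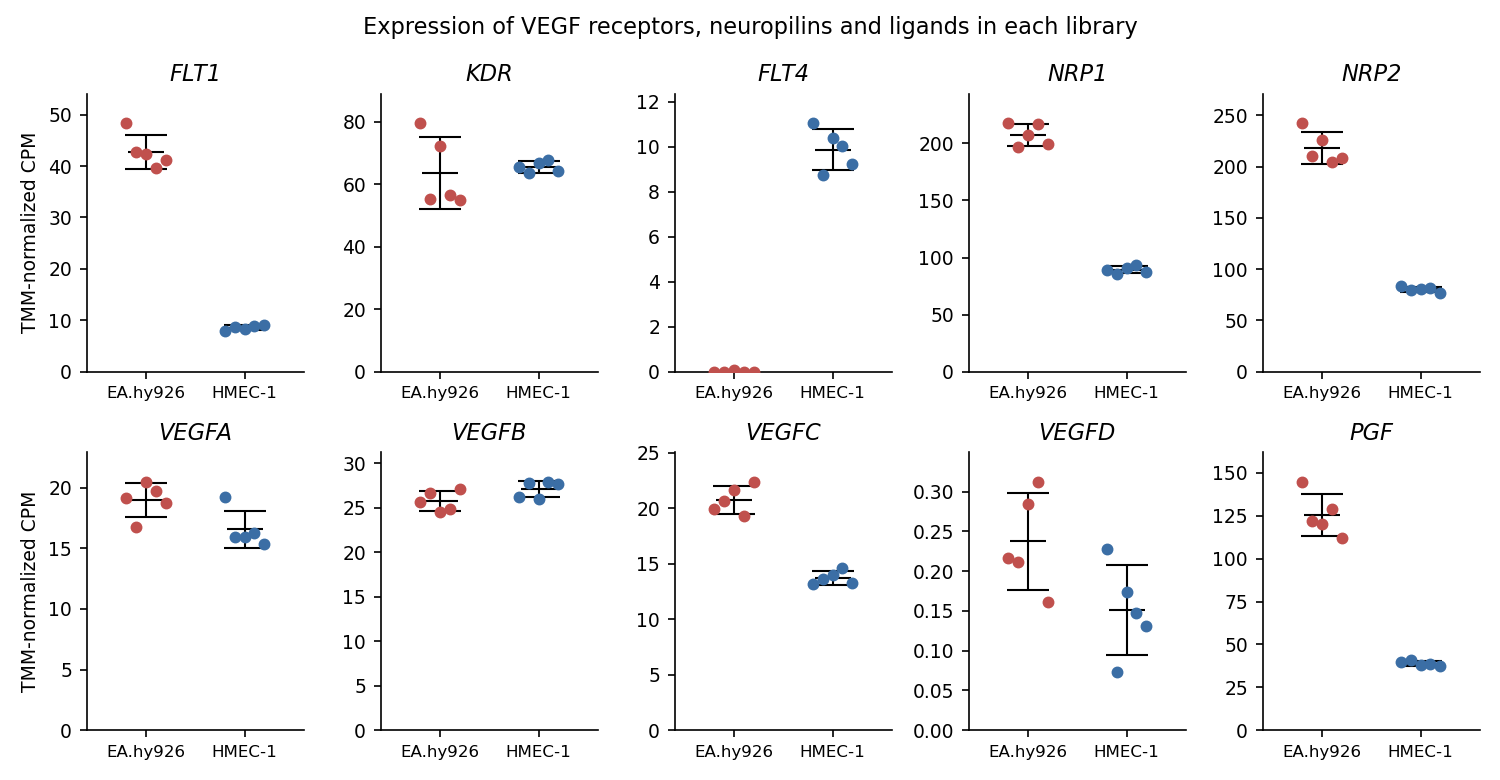
CPM of the 10 genes (y axis of each panel, linear from 0, scaled to the gene) in the 5 EA.hy926 and 5 HMEC-1 libraries (points), with the mean and SD as a bar. FLT1, NRP1, NRP2, VEGFC and PGF are higher in every EA.hy926 library, FLT4 is at or near 0 in EA.hy926, and KDR spreads from 54.8 to 79.5 CPM in EA.hy926 around a narrow HMEC-1 group.

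Among the receptors, FLT1 and FLT4 differed in opposite directions and KDR did not pass the test. FLT1 (ENSG00000102755, chromosome 13, 28300346 to 28495145, GRCh38) had 1785, 1416, 1486, 1520 and 1529 counts in the EA.hy926 libraries and 275, 356, 384, 363 and 347 in the HMEC-1 libraries. Every EA.hy926 library was thus well above every HMEC-1 library. In CPM the level was 42.8 ± 3.31 against 8.58 ± 0.496 (SD, n = 5 each), a log2FC of 2.32 (SE 0.056, 95% interval 2.20 to 2.44, edgeR adjusted p = 1.28e-19). Of all genes tested, 16.4% had a larger absolute log2FC.

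FLT4 (ENSG00000037280, chromosome 5, 180601506 to 180649624) had 0, 0, 2, 0 and 0 counts in EA.hy926 and 387, 356, 478, 408 and 352 in HMEC-1. The transcript of this receptor of VEGFC and VEGFD was therefore measured in HMEC-1, at 9.87 ± 0.918 CPM, and was at or under the floor of 3 counts in every EA.hy926 library. Set against that floor, FLT4 in EA.hy926 was at least 109-fold lower. The floor of 3 counts corresponds to 0.0781 to 0.0904 CPM in the EA.hy926 libraries, and it covers counting error only.

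KDR (ENSG00000128052, chromosome 4, 55078481 to 55125595) had 79.5, 55.2, 72.3, 56.4 and 54.8 CPM in EA.hy926 and 65.5, 63.5, 66.7, 67.9 and 64.1 CPM in the HMEC-1 libraries. EA.hy926 replicates 1 and 3 were above and replicates 2, 4 and 5 below all HMEC-1 libraries. The coefficient of variation was 18.1% in EA.hy926 and 2.76% in HMEC-1. The log2FC was -0.042 (SE 0.077, 95% interval -0.20 to 0.12, edgeR adjusted p = 0.611). Without EA.hy926 replicate 1 the log2FC was -0.13 with an adjusted p of 0.0432, and with library totals in place of the scaling factors it was -0.18 with an adjusted p of 0.0301. Both values are below the size threshold of 1.

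EA.hy926 replicate 1 had the highest CPM of its line for FLT1, KDR, NRP1, NRP2 and PGF, 5 of the 9 genes tested. The same library was the highest of its line for the endothelial markers PECAM1 (1885 CPM, the others 1496 to 1677), CDH5 (1370, the others 1214 to 1287) and VWF (71.6, the others 48.6 to 62.5). The part of these markers in the spread of the receptors was not tested.

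**Figure D2:**
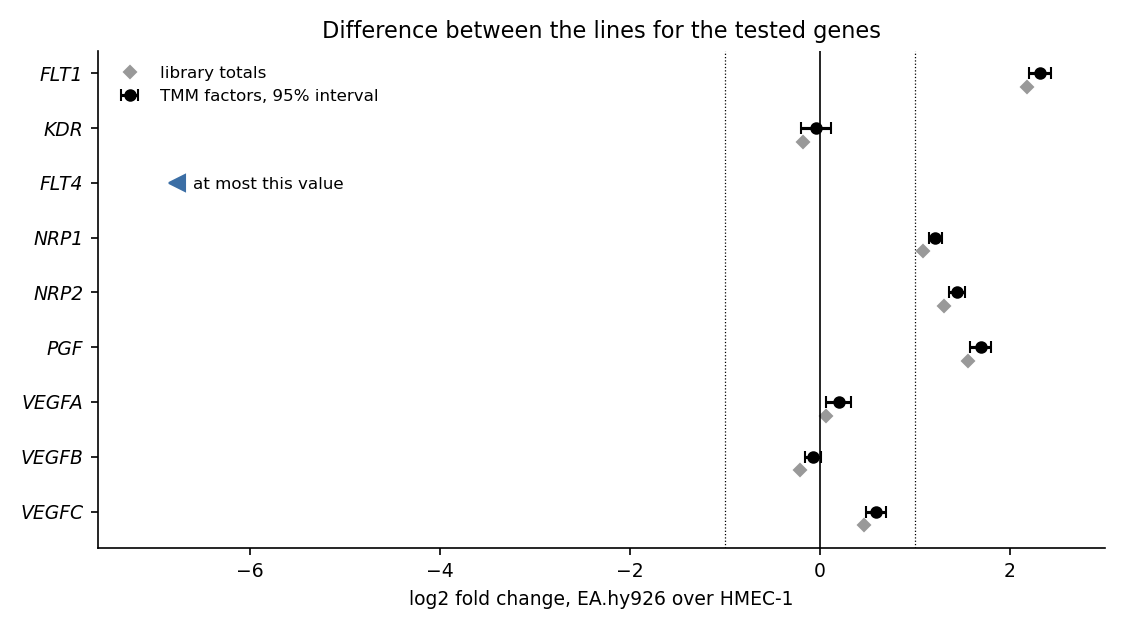
Log2 fold change of EA.hy926 over HMEC-1 (x axis) for the 9 genes tested, with TMM factors and 95% intervals (black) and with library totals (grey diamonds); dotted lines mark -1 and 1. FLT4 is drawn as an arrow at its bound of -6.77, FLT1, NRP1, NRP2 and PGF lie beyond 1 under both scalings, and KDR, VEGFA and VEGFB lie near 0.

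Both neuropilins were higher in EA.hy926. NRP1 (ENSG00000099250, chromosome 10, 33177492 to 33336262), the coreceptor best known for its pairing with KDR, had 218, 197, 207, 217 and 200 CPM in EA.hy926 and 89.3, 86.0, 90.6, 93.4 and 87.6 CPM in the HMEC-1 libraries. The lowest EA.hy926 library was above the highest HMEC-1 library. The log2FC was 1.22 (SE 0.032, 95% interval 1.15 to 1.28, edgeR adjusted p = 6.21e-19), and with library totals it was 1.08. Exons of other genes cover 4.87% of the exonic bases of NRP1.

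NRP2 (ENSG00000118257, chromosome 2, 205681990 to 205798133), which pairs with FLT4 and binds VEGFC, had 242, 210, 226, 205 and 208 CPM in EA.hy926 and 83.9, 79.8, 80.3, 81.1 and 76.9 CPM in the HMEC-1 libraries. Here too the groups did not overlap. The log2FC was 1.44 (SE 0.040, 95% interval 1.36 to 1.52, edgeR adjusted p = 1.18e-18). NRP2 was thus high in EA.hy926, in which FLT4 was at the floor, and lower in HMEC-1, in which FLT4 was measured.

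Among the ligands, PGF had the largest difference, VEGFC a smaller one in the same direction, and VEGFA and VEGFB differed little. PGF (ENSG00000119630, chromosome 14, 74941834 to 74955626), placental growth factor, had 145, 122, 120, 129 and 112 CPM in EA.hy926 and 39.5, 41.1, 37.8, 38.5 and 37.2 CPM in the HMEC-1 libraries. Each EA.hy926 library was well above all HMEC-1 libraries. The log2FC was 1.69 (SE 0.052, 95% interval 1.59 to 1.80, edgeR adjusted p = 7.12e-18). PGF and its receptor FLT1 were therefore both higher in EA.hy926.

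VEGFC (ENSG00000150630, chromosome 4, 176683538 to 176792922), a ligand of FLT4 that also binds KDR once processed, had 19.9, 20.6, 21.6, 19.3 and 22.4 CPM in EA.hy926 and 13.1, 13.7, 14.0, 14.6 and 13.2 CPM in the HMEC-1 libraries. The groups did not overlap. The log2FC of 0.60 (SE 0.051, 95% interval 0.49 to 0.70, edgeR adjusted p = 5.16e-10) passed the test but not the size threshold. Its value was near the median absolute log2FC of all genes tested, 0.65.

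VEGFA (ENSG00000112715, chromosome 6, 43770184 to 43786487), the main ligand of KDR, had 19.1, 16.7, 20.5, 19.7 and 18.7 CPM in EA.hy926 and 19.3, 15.9, 16.0, 16.3 and 15.4 CPM in the HMEC-1 libraries. The groups overlapped through HMEC-1 replicate 1, which was above 3 of the EA.hy926 libraries. The log2FC was 0.20 (SE 0.062, 95% interval 0.069 to 0.33, edgeR adjusted p = 0.00552). With library totals it was 0.064 with an adjusted p of 0.343, and without HMEC-1 replicate 1 it was 0.24.

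VEGFB (ENSG00000173511, chromosome 11, 64234584 to 64239264), a ligand of FLT1, had 24.5 to 27.1 CPM in EA.hy926 (mean 25.7 ± 1.08) and 26.0 to 27.9 CPM in the HMEC-1 libraries (mean 27.1 ± 0.909). These ranges overlapped, and the log2FC was -0.074 (SE 0.041, 95% interval -0.16 to 0.011, edgeR adjusted p = 0.0960). With library totals it was -0.21 with an adjusted p of 7.33e-05, and without HMEC-1 replicate 1 it was -0.099 with an adjusted p of 0.0404.

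VEGFD (ENSG00000165197, chromosome X, 15345596 to 15384413), the other ligand of FLT4, had 8, 7, 10, 12 and 6 counts in EA.hy926 and 8, 3, 8, 6 and 5 in HMEC-1. It was thus detected in all 10 libraries at a very low level. In a fit without the filter its log2FC was 0.64 (SE 0.44, 95% interval -0.22 to 1.495, edgeR adjusted p = 0.221), and a difference was not detectable at this depth.

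Levels of different genes were compared as CPM per kilobase of merged exons. In EA.hy926, PGF was the highest of the 10 genes at 21.6 ± 2.13 CPM per kb, followed by NRP1 at 18.02 ± 0.837 and NRP2 at 15.7 ± 1.13, whose ranges overlapped. VEGFB at 13.1 ± 0.550 and KDR at 10.0 ± 1.81 overlapped as well. Below them came VEGFC at 7.94 ± 0.482, FLT1 at 3.40 ± 0.263, VEGFA at 1.31 ± 0.0976 and VEGFD at 0.109 ± 0.0278, and FLT4 was at the floor.

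In HMEC-1 the order began with VEGFB at 13.8 ± 0.462 CPM per kb, KDR at 10.3 ± 0.285 and NRP1 at 7.76 ± 0.246. PGF followed at 6.69 ± 0.265, above NRP2 at 5.78 ± 0.183 and VEGFC at 5.25 ± 0.232, whose ranges overlapped. VEGFA at 1.15 ± 0.107 and FLT4 at 1.11 ± 0.104 overlapped too. FLT1 at 0.682 ± 0.0395 and VEGFD at 0.0689 ± 0.0260 were the lowest, so that FLT1 stood below FLT4 in HMEC-1.

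The levels depend on the length used, most for PGF and VEGFA, whose merged exons (5804 and 14431 bases) are much longer than their canonical transcripts (1740 and 3609 bases). Per kilobase of the canonical transcript the order in EA.hy926 was the same, with PGF at 72.2 ± 7.10. Here KDR (10.9 ± 1.97) and VEGFC (9.19 ± 0.557) overlapped, as did FLT1 (6.01 ± 0.465) and VEGFA (5.25 ± 0.390). In HMEC-1 the upper part of the order changed to PGF at 22.3 ± 0.884, NRP1 at 15.8 ± 0.503, VEGFB at 15.01 ± 0.504, NRP2 at 12.1 ± 0.382 and KDR at 11.2 ± 0.310. KDR was thus in place 2 by merged exons and in place 5 by canonical transcripts, although the ranges of NRP1 and VEGFB, and those of NRP2 and KDR, overlapped. VEGFA had 4.59 ± 0.426 in HMEC-1 and kept its place. The choice of length does not touch the comparison of a gene between the lines.

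KDR made up most of the receptor transcripts in both lines. It held 74.4% ± 2.35 of the summed CPM per kb of the 3 receptors in EA.hy926 and 85.2% ± 0.353 in HMEC-1. FLT1 held 25.6% ± 2.37 in EA.hy926 and 5.63% ± 0.399 in HMEC-1, and FLT4 held 9.18% ± 0.696 in HMEC-1. The receptor sum itself was 13.4 ± 2.03 CPM per kb in EA.hy926 and 12.1 ± 0.348 in HMEC-1. With canonical lengths KDR held 64.2% ± 2.85 in EA.hy926 and 79.5% ± 0.388 in HMEC-1. FLT1 then held 35.8% ± 2.87 and 8.53% ± 0.605, and FLT4 12.0% ± 0.902 in HMEC-1. The receptor sum with these lengths was 16.9 ± 2.36 and 14.1 ± 0.404.

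The ligand sum was 44.1 ± 1.69 CPM per kb in EA.hy926 and 26.9 ± 0.612 in HMEC-1, and with canonical lengths 101 ± 6.54 and 48.1 ± 1.18. PGF held 49.0% ± 3.09 of it in EA.hy926 and 24.9% ± 0.801 in HMEC-1, and with canonical lengths 71.3% ± 2.42 and 46.4% ± 0.916. VEGFB held 29.7% ± 1.72 and 51.1% ± 1.02 by merged exons and 14.2% ± 1.23 and 31.2% ± 1.02 by canonical transcripts, so the leading ligand transcript in HMEC-1 was VEGFB by merged exons and PGF by canonical transcripts. The neuropilin sum was 33.7 ± 1.69 and 13.5 ± 0.357 CPM per kb, and 69.7 ± 3.50 and 27.9 ± 0.736 with canonical lengths.

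**Figure D3:**
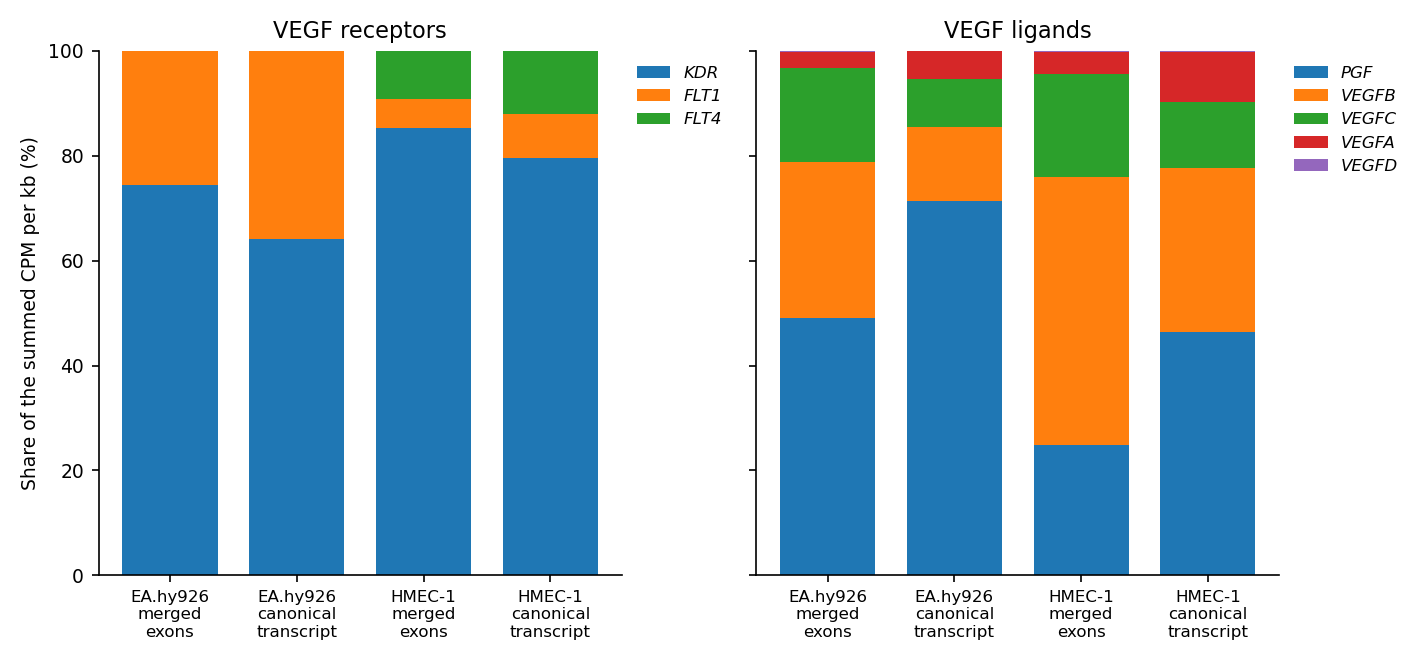
Share (y axis, %) of each receptor in the summed CPM per kb of the 3 receptors (left) and of each ligand in that of the 5 ligands (right), as the mean of 5 libraries per line, with either length. KDR leads the receptors in all 4 bars, and PGF takes a larger share of the ligands in EA.hy926 than in HMEC-1 with both lengths.

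Ratios taken within a library do not depend on the scaling between libraries. The log2 ratio of FLT1 to KDR per length was -1.55 ± 0.18 in EA.hy926 and -3.92 ± 0.099 in HMEC-1, a difference of 2.38. That of VEGFA to PGF was -4.04 ± 0.17 and -2.55 ± 0.12, and that of VEGFC to VEGFA was 2.60 ± 0.14 and 2.20 ± 0.16. NRP1 to NRP2 gave 0.20 ± 0.093 and 0.42 ± 0.051, the smallest difference of these ratios (-0.22). With canonical lengths the ratio of VEGFC to VEGFA was 0.81 ± 0.14 and 0.41 ± 0.16 and that of FLT1 to KDR -0.85 ± 0.18 and -3.22 ± 0.099, while the differences between the lines stayed as they were. None of the 4 ratios overlapped between the lines, and none was tested.

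The profile over the 10 libraries was compared with all other tested genes by Pearson's r of log2 CPM, as a description of libraries that share a line. FLT1, FLT4, NRP1, NRP2 and PGF had between 1519 and 2056 genes each with r over 0.99, led by SEPTIN6, PIEZO2, SEMA6B, SNRK and FAM43A in that order. VEGFC was most like ENSG00000261550 (r = 0.993), and 3 genes in all passed 0.99. KDR was most like PTPN23 (r = 0.942), VEGFA like COL4A5 (r = 0.929) and VEGFB like SEPSECS-AS1 (r = 0.945), with no gene over 0.99.

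Tested protein-coding genes within 500 kb were read beside FLT4 and FLT1. Of the 5 around FLT4, GFPT2 was called higher in EA.hy926 (log2FC 1.21) and none lower, beside 35.5% of all genes called. The nearest, CNOT6, 23148 bases away, had 68.1 and 120.5 CPM in EA.hy926 and HMEC-1 (log2FC -0.82). CNOT6, MAPK9 and MGAT1 were lower at an adjusted p under 0.05 without passing the size threshold. Of the 3 around FLT1, SLC46A3 was called lower (log2FC -3.88) and none higher, and PAN3, 5011 bases away, had 29.8 and 45.0 CPM. PAN3 and POMP were lower at an adjusted p under 0.05 without passing the size threshold. The log2FC ran from -0.88 to 1.21 around FLT4 and from -3.88 to -0.59 around FLT1.

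FLT4 is a marker of lymphatic endothelium, and the other markers of that lineage were read in the same libraries. Of 9 such markers, 7 were tested and all 7 were called, 5 higher and 2 lower in EA.hy926, with a median log2FC of 4.15, beside 35.5% of all genes called. PROX1, LYVE1, RELN, ANGPT2, PDPN and TFF3 passed the filter on low counts through 1 line only. Their calls were thus close to fixed, and the count supports nothing by itself. PROX1, the transcription factor that sets lymphatic identity, had 454, 359, 353, 363 and 332 counts in EA.hy926 and 3, 1, 1, 0 and 1 in HMEC-1, at least 121-fold higher in EA.hy926. PDPN, the membrane glycoprotein podoplanin, had 0 counts in all EA.hy926 libraries and 2935 to 3685 in HMEC-1, at least 919-fold lower in EA.hy926. PDPN therefore followed FLT4, and PROX1 had the reverse pattern.

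MMRN1, a secreted multimerin, was at 172 ± 17.9 CPM in EA.hy926 and 0.743 CPM in the HMEC-1 libraries (log2FC 7.86, edgeR adjusted p = 2.48e-24). TFF3, a trefoil peptide, in EA.hy926 was at least 36.8-fold lower. The hyaluronan receptor LYVE1 was at 2.45 ± 0.652 and 0.139 CPM. CCL21, a defining chemokine, had at most 3 counts in every library. The summed CPM of the 9 markers was 173 to 215 over the EA.hy926 libraries and 84.2 to 90.8 over those of HMEC-1. MMRN1 made up most of this sum in EA.hy926, and PDPN, at 83.0 CPM, most of it in HMEC-1. Neither line held FLT4 and PROX1 together, and the relation of these markers to FLT4 was not tested.

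**Figure D4:**
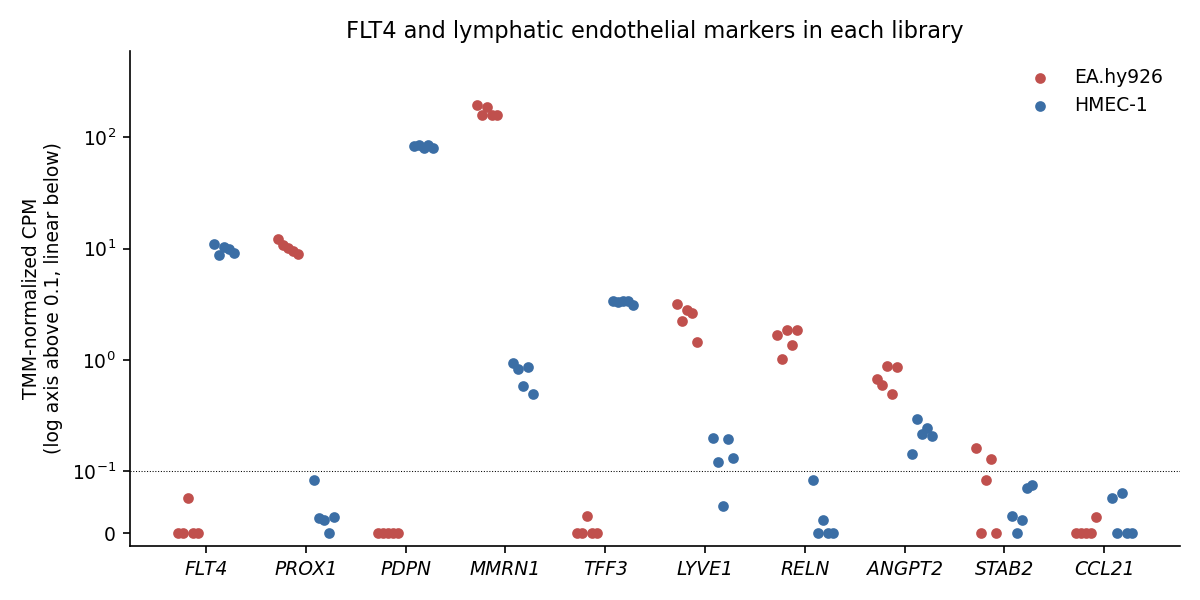
CPM of FLT4 and 9 lymphatic endothelial markers (y axis, log scale above 0.1 and linear below) in the 5 libraries of EA.hy926 (red) and HMEC-1 (blue). FLT4, PDPN and TFF3 are at or near 0 in EA.hy926, whereas PROX1 lies at or under 3 counts and MMRN1 below 1 CPM in HMEC-1.

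Genes that act with the VEGF family were read from 7 lists of 140 genes in all, of which 130 were tested. Of these, 28 were called higher and 21 lower in EA.hy926, 49 together or 37.7%, close to the 35.5% of all genes. The median log2FC was -0.075. At an adjusted p under 0.05, 58 were higher, 64 were lower and 8 did not pass. The counts of each list below stand beside 19.1% of all genes called higher and 16.4% called lower. PROX1, SDC2, HIF3A, TAL1, PTGS2, F3, THBS2, SH2D2A and ANGPT2 passed the filter on low counts through a single line. Their calls were close to fixed, and the list counts support nothing by themselves.

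Of 14 semaphorins, plexins and other neuropilin partners, 13 were tested, 1 was called higher and 4 were called lower, with a median of -0.36. The plexin PLXNA4, a semaphorin receptor, was at 335 and 39.2 CPM (log2FC 3.10) and thus higher in EA.hy926 with both neuropilins. The plexin PLXNA3 (log2FC -1.83) and the ligand SEMA3D (log2FC -1.96) were lower, with edgeR adjusted p of 1.11e-19 and 2.19e-21.

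Of 17 genes for ligand processing and binding, 15 were tested, 3 were called higher and 5 lower, with a median of 0.30. The heparan sulfate proteoglycan SDC2, of a class that holds VEGF at the cell surface, was at 0.159 CPM in EA.hy926 and 153 CPM in the HMEC-1 libraries, while SDC1 was higher in EA.hy926 (122 and 20.1 CPM). CCN2, a matrix protein that binds VEGFA, was at 228 and 1272 CPM (log2FC -2.48). THBS2, an antiangiogenic thrombospondin, was at 1.93 and 0.177 CPM, and exons of other genes cover 31.2% of its exonic bases.

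Of 39 receptor signaling genes, 38 were tested, 5 were called higher and 1 lower, with a median of -0.16. Protein kinase D1, PRKD1 (log2FC 4.05), and the transcription factor NFATC2 (log2FC 4.78) were higher and NFATC1 (log2FC -1.55) was lower in EA.hy926. Of 14 receptor phosphatases and trafficking genes, 13 were tested and 2 were called, with a median of -0.32. The phosphatase PTPRJ, which acts on KDR, was at 52.0 and 176 CPM (log2FC -1.76), and the junction protein CDH5, which KDR associates with, was higher (log2FC 1.52).

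Of 14 regulators of VEGFA transcription, 11 were tested, none was called higher and 2 were called lower, with a median of 0.037. These were the hypoxia factors EPAS1 (222 and 918 CPM, log2FC -2.05) and HIF3A (0.0797 and 30.6 CPM, log2FC -8.57). HIF3A had 0 to 9 counts in EA.hy926, and its log2FC was -9.66 without EA.hy926 replicate 3. VEGFA itself differed by a log2FC of 0.20 between the lines. EdgeR's quasi-likelihood test gave adjusted p of 6.09e-22 for EPAS1 and 3.34e-21 for HIF3A.

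Of 22 transcription factors of the receptor genes, all were tested, 10 were called higher and 5 lower, beside 35.5% of all genes called. Their median log2FC was 0.81. PROX1 and SOX7 (116 and 15.6 CPM, log2FC 2.90) were the highest by log2FC, and exons of other genes cover 39.4% of the exonic bases of SOX7. TAL1, a blood and endothelial factor, in EA.hy926 was at least 540-fold lower, and KLF4 was lower with a log2FC of -3.20.

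Of 20 genes known to be induced by VEGF, 18 were tested, 8 were called higher and 3 lower, beside 35.5% of all genes called. Their median log2FC was 0.22. The prostaglandin synthase PTGS2 (log2FC 8.33) and the protease ADAMTS1 (log2FC 3.65) were higher in EA.hy926. PTGS2 had 0 to 4 counts in HMEC-1, and its log2FC was 9.35 without HMEC-1 replicate 3. The early response factor EGR1 was at 1.03 ± 0.316 and 43.0 ± 16.0 CPM (log2FC -5.39), and tissue factor, F3, was at 0.0980 and 0.439 CPM (log2FC -2.10). EGR1 varied widely among the HMEC-1 libraries, from 667 to 2427 counts.

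**Figure D5:**
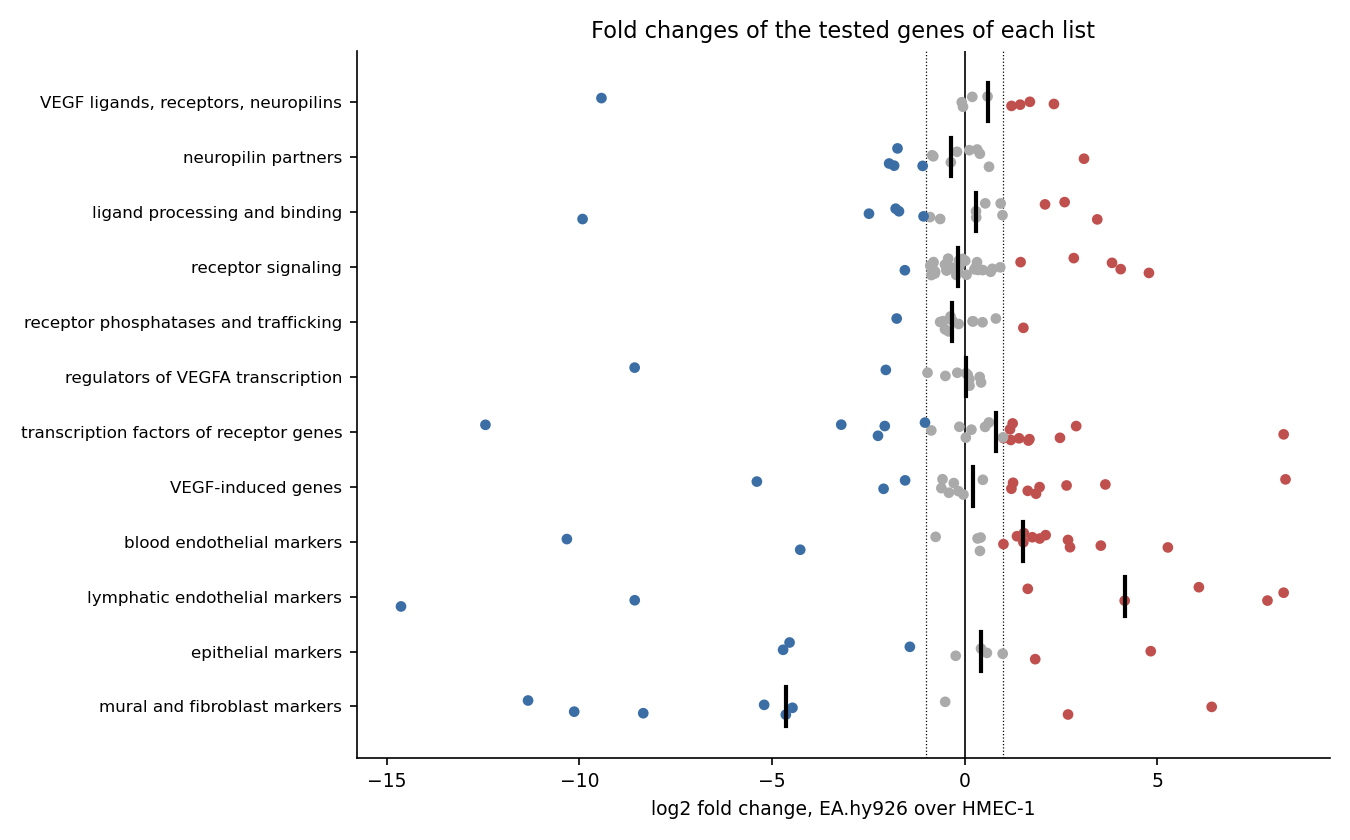
Fitted log2 fold change of EA.hy926 over HMEC-1 (x axis) of the tested genes of each list (points; red called higher, blue called lower, grey not called), with the median as a black bar. Genes that do not exceed 3 counts in any library of 1 line, such as FLT4, are drawn at a fitted value that depends on the prior count; the medians run from -4.64 for mural and fibroblast markers to 4.15 for lymphatic markers.

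Of 17 blood endothelial markers, all were tested, 11 were called higher and 2 lower in EA.hy926, beside 35.5% of all genes called. Their median log2FC was 1.52. Their summed level was 7125 to 7910 CPM over the EA.hy926 libraries and 2401 to 2473 CPM over those of HMEC-1. CLDN5 and EMCN passed the filter on low counts through HMEC-1 alone, so their calls were close to fixed. VWF was at 57.9 ± 9.30 and 22.6 ± 0.435 CPM (log2FC 1.36), PECAM1 had a log2FC of 2.68, and the adhesion molecules ESAM (log2FC 5.28) and ICAM2 (log2FC 3.54) were higher, whereas CLDN5 (log2FC -4.27) was lower and EMCN was at least 203-fold lower. Exons of other genes cover 26.8% of the exonic bases of ICAM2. FLT1, NRP1, NRP2 and PGF lay on the same side as most of these markers. FLT4 lay on the other side, with CLDN5 and EMCN, and KDR and VEGFB did not pass the test.

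Of 13 epithelial markers, 9 were tested, 2 were called higher and 3 lower, beside 35.5% of all genes called, with a median of 0.43. Their summed level was 1279 to 1392 CPM over the EA.hy926 libraries and 431 to 495 CPM over those of HMEC-1. The keratins KRT7 (622 CPM) and KRT8 (546 CPM) made up most of the sum in EA.hy926. In HMEC-1, KRT7 (314 CPM) made up most of it. CDH1, ESRP1 and ELF3 had at most 3 counts in every library. EPCAM, the defining surface marker, was at 0.895 and 0.246 CPM, KRT8 was higher (log2FC 4.83), and KRT19 (log2FC -4.71) and CLDN7 (log2FC -4.54) were lower. EPCAM passed the filter on low counts through EA.hy926 alone, and KRT19 and CLDN7 through HMEC-1 alone, so these calls were close to fixed.

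Of 12 mural and fibroblast markers, 9 were tested, 2 were called higher and 6 lower, beside 35.5% of all genes called. Their median log2FC was -4.64, or -4.47 with genes at the floor set to their bound. Their summed level was 414 to 472 CPM over the EA.hy926 libraries and 592 to 619 CPM over those of HMEC-1. RGS5 made up most of the sum in EA.hy926 (430 CPM) and COL1A1 in HMEC-1 (358 CPM). COL1A1, COL1A2, COL3A1 and CSPG4 passed the filter on low counts through HMEC-1 alone, so their calls were close to fixed. RGS5 (log2FC 6.41) and ACTA2 (log2FC 2.68) were higher, COL1A1 was lower (log2FC -10.1) and COL1A2 was at least 1198-fold lower. Exons of other genes cover 36.2% of the exonic bases of ACTA2. LUM had 0 counts in every library. The part of these markers in the differences of the VEGF family was not tested.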

How the data were processed

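The authors enriched mRNA by oligo(dT) selection, sequenced it on an Illumina instrument and aligned the reads to GRCh38 with HISAT2. The values they deposited are raw counts per gene, neither normalized nor filtered. Their methods name HTSeq as the counter, and the submitters' processing notes list fastp, HISAT2, featureCounts and DESeq2 without versions. The strand setting and the annotation release are not given in the sources used here. The genes and the lists were chosen with earlier results of these data known.

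Symbols, coordinates and lengths came from GENCODE 44, which matched 56434 of 60448 identifiers (93.4%). Exonic overlap with other genes was taken over both strands (bedtools 2.31.1). Genes were kept by filterByExpr (minimum count 10, total 15), libraries were scaled by TMM, and the lines were compared with the quasi-likelihood test of edgeR 4.0.16 in R 4.3.3, with Benjamini-Hochberg adjustment over 16310 genes. The study names limma with the same thresholds, which is run here as limma-voom (limma 3.58.1). The standard error of a log2FC is its size divided by the square root of F. CPM are TMM-scaled, and a prior count of 2 enters log2 CPM. A floor of 3 counts per library, which covers counting error only, replaced lower values in bounds on folds. All members were named, and of each list the 2 highest and 2 lowest called genes by log2FC with a mean of at least 10 counts, together with PECAM1, CDH5, VWF, EPCAM and the most alike gene of each member. LYVE1, RELN, CCL21, ANGPT2, SH2D2A, COL3A1, CSPG4, LUM, CD34, KRT7, CDH1, ESRP1, ELF3 and the neighbouring genes were named after their values were seen. Promoter windows came from a table of RefSeq starts (GRCh38.p14), in which 7 of the 10 genes were matched. Windows of VEGFA, NRP1 and FLT4 were not analysed here.

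The alternatives were DESeq2 1.42.0, limma-voom, RLE factors, library totals, no filter, a minimum of 10 counts in all libraries, a replicate block, glmTreat and leaving out each library. Canonical transcript lengths were added after seeing the data. The tools were tested on counts simulated from these libraries for the same comparison, with 196 of 16030 genes changed 3-fold. EdgeR called 194 of the changed genes in the right direction and 0 others, DESeq2 194 and 0, and limma-voom 195 and 1. The simulation changed far fewer genes than the 35.5% called in the data, so it does not bear on the scaling between the lines.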

Additional observations from a re-analysis of the deposited data

Results flagged for a closer look

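The VEGF family genes, the genes named from each list by log2FC, PECAM1, CDH5, VWF, EPCAM and each ratio were checked. The check looked in the 5 libraries of a line for 1 library far from the other 4. It used the gap to the nearest neighbour over the whole range. The most alike genes and the genes named after their values were seen were not checked. Of 106 sets of values, 14 were picked out, and chance alone picks out about 1 in 20. No explanation was tested for any of them.

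In the VEGF family, VEGFA in HMEC-1 replicate 1 was at 19.3 CPM, the others being at 15.4 to 16.3 CPM, and in the same library the log2 ratio of VEGFC to VEGFA was 1.91 against 2.24 to 2.31 in the others. FLT4 in EA.hy926 replicate 3 was at 0.0569 CPM, or 2 counts, with 0 in the other 4 libraries.

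At levels at or under the floor of 3 counts, the same was seen in EA.hy926 for EMCN in replicate 4 (0.0520 CPM), TAL1 in replicate 4 (0.0260 CPM) and TFF3 in replicate 3 (0.0285 CPM). Above the other libraries of their line stood CLDN7 in EA.hy926 replicate 1 (0.325 CPM), EPCAM in HMEC-1 replicate 2 (0.539 CPM), ESAM (249.996 CPM) and PTGS2 (12.7 CPM) in EA.hy926 replicate 1, and SEMA3D in HMEC-1 replicate 3 (94.7 CPM). Below the others stood CLDN5 in HMEC-1 replicate 3 (1.11 CPM), TFF3 in HMEC-1 replicate 5 (3.11 CPM) and PTPRJ in EA.hy926 replicate 4 (49.8 CPM).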

How the results depend on the processing

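FLT1, NRP1, NRP2, PGF and FLT4 were called under every alternative run, except that FLT4 was not tested where at least 10 counts were required in every library, which left 4 of the genes called. The number of genes called in the whole table was 9312 of 33071 without the filter and 3255 of 13107 with at least 10 counts in every library, and it ran from 5945 to 6000 when single libraries were left out. The log2FC of KDR ran from -0.13 to 0.014 over the libraries left out, and was positive without EA.hy926 replicate 2 (0.010), 4 (0.0056) or 5 (0.014), in each case without passing the test. Library totals moved the log2FC of all genes by a median of -0.13. On this scaling, VEGFA no longer passed an adjusted p of 0.05, whereas KDR and VEGFB passed it below 0. Canonical lengths moved the level per length beyond 1 SD for most of the genes but not the shares' direction between the lines. The replicate numbers did not pair the libraries (correlation of same-numbered deviations -0.023 to 0.039), and the fit with the replicate block called 5786 genes, 5 of them in the VEGF family and 49 in the 7 lists. At this depth VEGFD, with 3 to 12 counts per library, is the gene for which precision is the limit.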
